A study of Mus musculus with 4 samples.

Results

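Runx3 binding was examined at the genes of the tyrosine and dual-specificity phosphatases, the enzymes that take phosphate off the tyrosines (and, for the dual-specificity group, also the serines and threonines) that kinases have marked. Members were taken by name alone from the RefSeq protein-coding genes of GRCm38.p6 (mm10): symbols that start with Ptpn or Dusp and a number, or with Ptpr and 1 letter, plus Ptprcap, and without Ptprc. The rule found 59 of 21883 protein-coding genes. They were 10 MAP kinase phosphatases (Dusp1, Dusp2, Dusp4 to Dusp10 and Dusp16), 14 other or atypical Dusp genes, 17 non-receptor enzymes (Ptpn), 17 receptor-type enzymes (Ptpr) and Ptprcap. Ptprcap encodes a membrane protein that associates with CD45 and is not itself a phosphatase. Ptprv matched by name but is a pseudogene in the table and was left out.

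The study mapped Runx3, a RUNX-family transcription factor of CD8 T cells, in wild-type adult mouse spleen. CD8 T cells were purified with beads against CD8a, and no treatment, strain or exact age was given in the sources used here. Chromatin immunoprecipitation (ChIP) used 50000000 frozen cells pooled from 5 mice, with whole cell extract as its control, and CUT&RUN, in which a nuclease tethered by the antibody cuts out bound DNA, used 150000 fresh cells of 1 mouse. Both used a rabbit antiserum to Runx3, and a CUT&RUN library with normal rabbit serum was not analysed here. Each group was 1 library, so the assays cannot be set against replicate spread, and no test is given. Mouse pool, freezing, cell number, use of a control and assay changed together and cannot be told apart.

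In T cells, antigen receptor signalling starts when Lck and Zap70 phosphorylate tyrosines, and phosphatases such as Ptpn22 and Ptpn6 take those phosphates off again. Further down, MAP kinases are switched on by phosphorylation of a threonine and a tyrosine, and the MAP kinase phosphatases remove both. Many MAP kinase phosphatase genes are themselves induced by the signals they end, while receptor-type phosphatases sit in the membrane, with CD45 as the best known in lymphocytes. The lists hold binding only: RNA was not measured, so nothing below says how much of any enzyme the cells made.

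The ChIP list held 13166 peaks from 9532996 fragments after duplicate removal, and the CUT&RUN list 15891 peaks from 14068364. Peaks are described by their pileup, the number of fragments over the summit, given with an exact 95% Poisson interval, and by their rank within the list by q-value. Equal q-values were ordered by pileup and then by peak number, so ranks among ties carry no difference in strength. In ChIP, for example, peaks of 10 fragments stood at 60.3% (Ptpn18) and at 70.9% (Ptpn23) of the list. Heights were not compared between assays. Of the marker genes of CD8 T cells (Cd3d, Cd3e, Cd3g, Cd8a and Cd8b1), 5 of 5 had a summit within 10 kb of the gene in each list. Of other cells' markers, 0 of 3 myeloid genes and 1 of 2 NK genes (Klrb1c) had one in each list, and 1 (ChIP) and 2 (CUT&RUN) of 3 dendritic cell genes (Itgax and Xcr1 between them) did. By the same rule 40.2% of all protein-coding genes had a ChIP summit and 45.1% a CUT&RUN summit, so these few markers do not identify cells. The part of other cells in the results was not tested.

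Sequence shows what lies under promoter peaks, so 5 member promoters are printed here, chosen for their peaks or for a motif. They come from the RefSeq promoter windows of GRCm38.p6 (mm10), each 5′ to 3′ on the gene's own strand. Each run has 250 bases before the listed transcript start, the start, and 29 bases after it. The first is Ptpn22 at chr3:103860027-103860306 (+ strand), shown because it holds the highest-ranked member peak of both lists. Capitals mark the RUNX core letters, here ACCACA, the reverse complement of TGTGGT.

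Ptpn22: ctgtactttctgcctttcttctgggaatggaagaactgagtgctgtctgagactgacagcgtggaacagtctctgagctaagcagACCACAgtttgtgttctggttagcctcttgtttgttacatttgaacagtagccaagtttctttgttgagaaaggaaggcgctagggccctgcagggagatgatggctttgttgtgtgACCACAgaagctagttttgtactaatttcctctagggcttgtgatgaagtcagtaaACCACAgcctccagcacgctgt

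Its copies of these letters began 165 and 48 bases before the start and 8 bases after it. The CUT&RUN summit lay 20.5 bp and the ChIP summit 31.5 bp from the middle of the nearest copy, the one 48 bases before the start.

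The next pair is Dusp5 at chr19:53528895-53529174 (+ strand) and Dusp10 at chr1:184034131-184034410 (+ strand). These are the MAP kinase phosphatase promoters with the highest CUT&RUN pileups within a window, and neither holds the RUNX letters. Capitals run from the summit of one assay to the summit of the other, 39 bases at Dusp5 and 55 bases at Dusp10.

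Dusp5: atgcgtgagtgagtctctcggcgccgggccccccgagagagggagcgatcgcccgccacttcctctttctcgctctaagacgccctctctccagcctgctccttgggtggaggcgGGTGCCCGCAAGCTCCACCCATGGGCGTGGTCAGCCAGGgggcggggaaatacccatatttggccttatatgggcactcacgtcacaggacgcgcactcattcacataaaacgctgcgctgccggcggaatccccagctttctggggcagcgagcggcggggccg

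Dusp10: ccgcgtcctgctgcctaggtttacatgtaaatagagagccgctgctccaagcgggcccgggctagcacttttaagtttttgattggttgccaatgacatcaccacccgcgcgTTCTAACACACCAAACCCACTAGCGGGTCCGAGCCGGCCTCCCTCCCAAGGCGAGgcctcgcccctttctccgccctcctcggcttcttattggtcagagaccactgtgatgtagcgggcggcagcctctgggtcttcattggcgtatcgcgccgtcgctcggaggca

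The last pair carries other motifs. Ptpn1 at chr2:167932077-167932356 (+ strand) was the single member whose window held the ETS letters CCGGAAGT, marked in capitals as ACTTCCGG. Dusp1 at chr17:26508443-26508722 (- strand) held the cyclic-AMP response element letters TGACGTCA, marked in capitals.

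Ptpn1: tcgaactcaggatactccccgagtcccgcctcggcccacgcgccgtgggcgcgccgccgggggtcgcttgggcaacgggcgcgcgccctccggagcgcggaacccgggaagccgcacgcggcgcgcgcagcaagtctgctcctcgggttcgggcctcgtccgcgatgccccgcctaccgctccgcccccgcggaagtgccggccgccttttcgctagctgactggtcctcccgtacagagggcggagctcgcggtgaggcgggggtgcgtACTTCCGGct

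Dusp1: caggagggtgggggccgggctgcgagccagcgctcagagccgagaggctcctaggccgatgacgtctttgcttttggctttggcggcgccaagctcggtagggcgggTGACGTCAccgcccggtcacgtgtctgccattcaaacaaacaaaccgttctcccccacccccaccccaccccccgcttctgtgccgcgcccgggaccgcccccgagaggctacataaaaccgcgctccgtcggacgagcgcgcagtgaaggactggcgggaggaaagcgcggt

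Runx3 summits were counted first within the gene or 10 kb of it. A summit lay within this distance at 33 of 59 members in ChIP (55.9%, exact 95% interval 42.4 to 68.8), where 40.2% of all protein-coding genes had one. In CUT&RUN the count was 31 (52.5%, 39.1 to 65.7; all genes 45.1%), and 28 members had a summit in both lists (47.5%, 34.3 to 60.9; all genes 34.9%). The 28 were 84.8% of the ChIP members and 90.3% of the CUT&RUN members. At 36 members either list had a summit (61.0%; all genes 50.5%), and at 23 neither did. The ChIP interval lay above the share of all genes, and the intervals for CUT&RUN and for both lists included theirs. The shares of all genes were not matched for gene length, and members were longer (median span 51.2 kb against 17.2 kb). The ChIP gap is therefore not one between genes of like length, for which shares are given below.

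Close to the gene's ends the family stood near the level of other genes. A summit within 1 kb of either end of the span was found at 17 members in ChIP (28.8%, 17.8 to 42.1; all genes 22.9%), at 16 in CUT&RUN (27.1%, 16.4 to 40.3; all genes 27.2%) and at 14 in both (23.7%, 13.6 to 36.6; all genes 18.3%). Measured from listed transcript starts, which 47 members have, a summit lay within 1 kb at 16 members in ChIP (34.0%; genes with a listed start 24.5%), at 15 in CUT&RUN (31.9%; 28.8%) and at 14 in both (29.8%; 19.7%). Shares differ with gene length, and the members were longer than other genes: the median member span was 51.2 kb and that of all protein-coding genes 17.2 kb. Among members under 10 kb long, 7 of 11 had a ChIP summit and 8 of 11 a CUT&RUN summit within the wider distance, against 28.7% and 32.6% of all genes of that length. For spans of 10 to 50 kb the counts were 10 and 9 of 18 (46.2% and 51.7% of genes that long), for 50 to 200 kb 13 and 12 of 22 (49.8% and 55.5%), and over 200 kb 3 and 2 of 8 (39.7% and 44.3%). The short members, all Dusp genes but Ptprcap, thus had the widest gap to genes of their own length, while in CUT&RUN the members of the other classes lay below theirs.

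**Figure D1:**
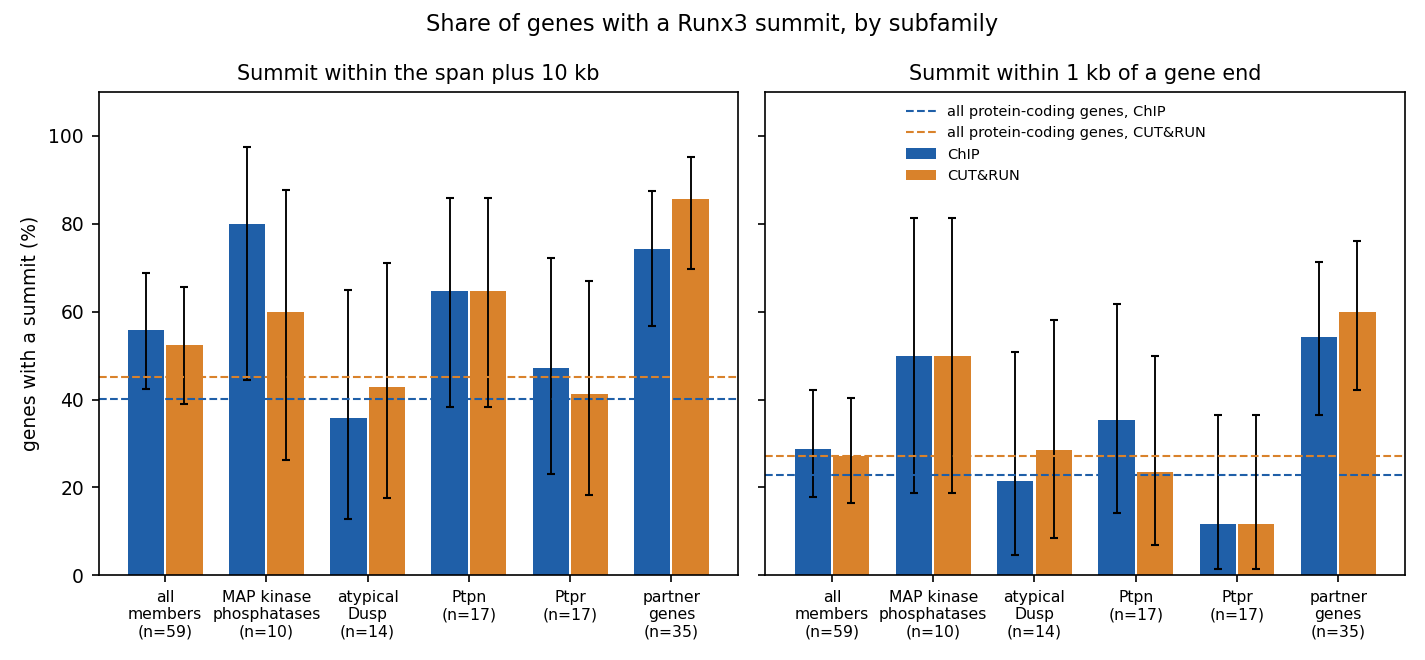
Share of genes (percent) with a Runx3 summit within the span plus 10 kb (left) or within 1 kb of a gene end (right), for all members, the 4 subfamilies and 35 partner genes. Bars are ChIP (blue) and CUT&RUN (orange), error bars are exact 95% Clopper-Pearson intervals for counting error, and dashed lines are all protein-coding genes; MAP kinase phosphatases are the tallest subfamily in ChIP, and the intervals of most subfamilies cross the dashed lines.

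The MAP kinase phosphatases had the highest ChIP share of the 4 subfamilies at both distances. Of the 10, 8 had a ChIP summit within the wider distance (80.0%, 44.4 to 97.5), 6 a CUT&RUN summit and 6 both (60.0%, 26.2 to 87.8, for each), where all genes had 40.2%, 45.1% and 34.9%. The subfamily spans 3 length classes. Dusp1, Dusp2, Dusp6, Dusp7 and Dusp9 are under 10 kb, where 28.7% of all genes had a ChIP and 32.6% a CUT&RUN summit. Dusp4, Dusp5, Dusp8 and Dusp10 are 10 to 50 kb (46.2% and 51.7%), and Dusp16 is 91.6 kb (50 to 200 kb: 49.8% and 55.5%). Most of the MAP kinase phosphatase summits lay outside the genes, and without the added 10 kb 1 of the 10 had a summit of both lists (all genes 16.2%). Their genes are short, with a median span of 9.72 kb, and 5 of the 10 had a summit within 1 kb of an end in each list (50.0%, 18.7 to 81.3; all genes 18.3% in both): Dusp1, Dusp2, Dusp5, Dusp7 and Dusp10. The number of members was too small to separate this subfamily from the others, whose intervals overlapped.

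Dusp5 encodes a nuclear phosphatase of ERK. It had 2 peaks in each list, and the peaks of the lists overlapped at both places. The promoter peak reached 34 fragments in ChIP (chromosome 19, 53529048; 23.5 to 47.5), and 38 bases away CUT&RUN reached 62 (47.5 to 79.5). Inside the gene, 7782 bp from the start, the ChIP summit at 53536927 had 27 (17.8 to 39.3) and the CUT&RUN summit at 53536907 had 90 (72.4 to 111). All 4 peaks were in the top 10% of their lists, but the order turned over: the promoter peak was the higher in ChIP and the internal one in CUT&RUN, though the intervals of promoter and internal peak overlapped in each list.

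Dusp10 encodes a phosphatase of JNK and p38. Its highest-ranked peak in each list lay upstream of the gene: the ChIP summit at chromosome 1, 184024811, at -9570 bp from the start, had a pileup of 36 (25.2 to 49.8) and rank 322, and the CUT&RUN summit at 184024835 had 81 (64.3 to 101) and rank 806. Both summits were nearer to an end of 1700056E22Rik (8.22 and 8.2 kb) than to Dusp10 (9.57 and 9.55 kb). The Dusp10 promoter differed between the lists in its standing. There CUT&RUN piled up 82 fragments at 184034297 (65.2 to 102), in the top 6.14%, and ChIP 16 at 184034243 (9.15 to 26.0; 25.0% of its list). A ChIP peak of 9 at 184033412 and a CUT&RUN peak of 18 at 184025309 overlapped none of the other list. They too were nearer to an end of 1700056E22Rik.

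Dusp2 encodes an inducible nuclear phosphatase of ERK. In its 2.22 kb span plus 10 kb on each side lay 5 ChIP and 3 CUT&RUN peaks. The strongest ChIP peak, at chromosome 2, 127335191 (pileup 35, 24.4 to 48.7, rank 398), lay 968 bp before the start and had no CUT&RUN peak over it. The promoter itself had a weak ChIP peak (127336129, pileup 8, 3.45 to 15.8) and a CUT&RUN peak of 38 (26.9 to 52.2) at 127336059. Past the far end, where the neighbouring gene Astl lies, the peaks of the lists met within 17 bp (127339053, pileup 24, 15.4 to 35.7, and 127339036, pileup 59, 44.9 to 76.1). The highest-ranked ChIP peak at Dusp2 was therefore seen in ChIP alone, while its highest CUT&RUN peak had a ChIP partner.

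Dusp7 and Dusp1 had weaker peaks. At Dusp7, an ERK phosphatase, the summits of the lists lay 7 bp apart, at -753 and -760 bp from the start, with pileups of 15 (8.40 to 24.7) in ChIP and 59 (44.9 to 76.1) in CUT&RUN. CUT&RUN had further Dusp7 peaks of 19 at -58 bp and of 17 within the wider distance. Dusp1, an immediate-early phosphatase of p38, JNK and ERK, had promoter summits at -47 bp in ChIP (pileup 12, 6.20 to 21.0) and -115 bp in CUT&RUN (25, 16.2 to 36.9). The element printed in capitals above begins 143 bases before the start, 28 bp upstream of that CUT&RUN summit. From 2.16 to 2.39 kb past the far end, Dusp1 had a second cluster, with 16 fragments in ChIP and peaks of 26 and 21 in CUT&RUN.

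The other MAP kinase phosphatases had low peaks or none. Dusp6, a cytoplasmic ERK phosphatase, had ChIP pileups of 8 and 12 past its far end and a CUT&RUN pileup of 19 upstream, at -1442 bp, with no overlap. Dusp16, a JNK phosphatase, had a ChIP peak of 10 at 55 bp after a listed start, and Dusp4 a ChIP peak of 7 at 99.3% of the list. Dusp8 and Dusp9 had no peak in either list.

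**Figure D2:**
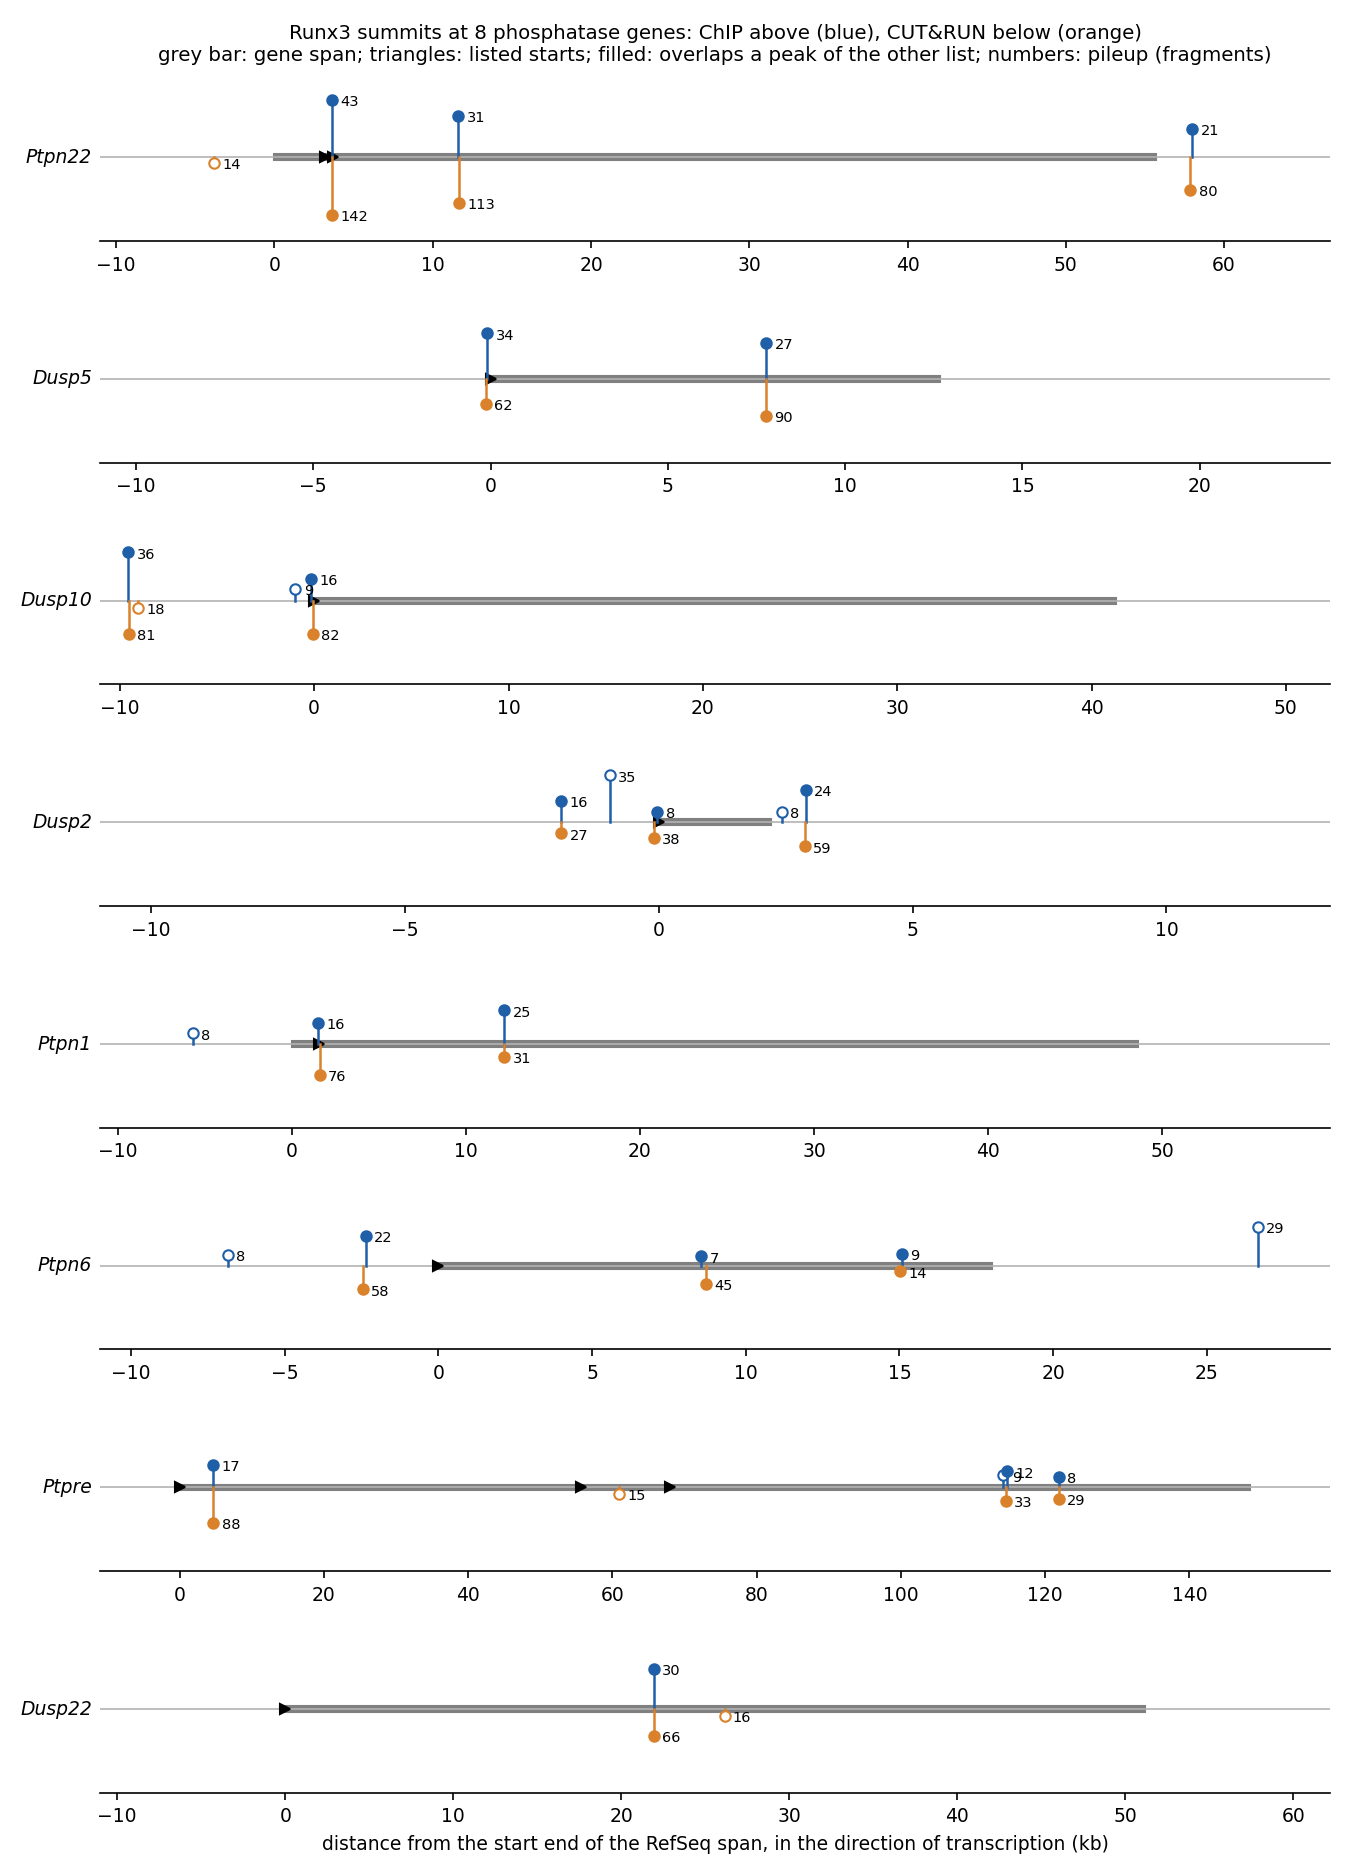
Runx3 summits along 8 phosphatase genes, with distance from the start end of the RefSeq span in kb on each horizontal axis, in the direction of transcription. Stems are ChIP above (blue) and CUT&RUN below (orange), drawn in proportion to the pileup within each assay (tallest 43 and 142, the promoter peaks of Ptpn22). Filled circles mark peaks that overlap the other list. Ptpn22, Dusp5, Dusp10, Dusp2 and Ptpn1 have filled pairs at a listed start.

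The non-receptor enzymes held the strongest member peak. Of 17 Ptpn genes, 11 had a summit within the wider distance in each list (64.7%, 38.3 to 85.8; all genes 40.2% and 45.1%) and 10 in both (58.8%; all genes 34.9%). Within 1 kb of an end there were 6 in ChIP (35.3%; all genes 22.9%), 4 in CUT&RUN (23.5%; 27.2%) and 4 in both (23.5%; 18.3%). The shares at span ends were near those of all genes. Measured from listed starts, 5 Ptpn genes had summits of both lists within 1 kb: Ptpn1, Ptpn4, Ptpn7, Ptpn22 and Ptpn23. Of all genes with a listed start 19.7% did, and the share among Ptpn genes with one was not computed.

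Ptpn22, which dephosphorylates Lck and Zap70 and binds the kinase Csk, ranked highest among all members in both lists. The promoter shown above had 43 fragments in ChIP at chromosome 3, 103860200 (31.1 to 57.9; rank 169, top 1.28%), and 142 in CUT&RUN at 103860211 (120 to 167; rank 199, top 1.25%). Inside the gene, 7902 bp past that start, a second pair had pileups of 31 (21.1 to 44.0) and 113 (93.1 to 136). The last pair had 21 (13.0 to 32.1) and 80 (63.4 to 99.6) and lay past the far end, inside the neighbour Rsbn1. The pairs fell in the same order of pileup in the lists, and the promoter summits sat 11 bp apart. Since that listed start is 3.7 kb inside the RefSeq span, Ptpn22 was not among the members with a summit at an end.

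Ptpn6 encodes SHP-1, which inhibitory receptors bring to the membrane, and lies among close neighbours. Its 5 ChIP peaks included the sixth-ranked among members' best peaks, at chromosome 6, 124712052 (pileup 29, 19.4 to 41.6, rank 775), but that summit lay inside Emg1, 134 bp from its end, with no CUT&RUN peak over it. The next, at 124741072 (22, 13.8 to 33.3), lay 3 bp from the end of Grcc10 and was paired with a CUT&RUN summit at 124741163 (58, 44.0 to 75.0). Within Ptpn6 itself, CUT&RUN summits at 124730013 (45, 32.8 to 60.2) and 124723685 (14, 7.65 to 23.5) were paired with ChIP pileups of 7 and 9. So the highest peaks counted for Ptpn6 were nearer to other genes.

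Ptpn1 encodes PTP1B, a phosphatase of the insulin receptor and of Jak2. Its promoter peak was high in CUT&RUN (chromosome 2, 167932346, pileup 76, 59.9 to 95.1, rank 828) and moderate in ChIP (167932278, 16, 9.15 to 26.0). An internal pair stood the other way, with 25 (16.2 to 36.9, top 9.02%) in ChIP at 167942968 and 31 (21.1 to 44.0, 37.1% of the list) in CUT&RUN 20 bp away. The ETS letters printed above begin 20 bases after the start, next to the CUT&RUN summit at 19 bases.

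Peaks at the remaining Ptpn genes were weaker or set apart from the start. Ptpn18 had a ChIP peak of 25 (16.2 to 36.9; rank 1107) at 5.22 kb past its far end, paired with a CUT&RUN peak of 16 (9.15 to 26.0) at 69.1% of its list. At Ptpn12, which encodes PTP-PEST, the summits of the lists fell on the same base, chromosome 5, 21056162, with pileups of 13 (6.92 to 22.2) and 49 (36.3 to 64.8). Ptpn7, an ERK and p38 phosphatase of blood cells, had 5 ChIP peaks, all with pileups of 8 to 10, and a CUT&RUN peak of 22 (13.8 to 33.3) at -185 bp.

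Ptpn2, the phosphatase of Jak1, Jak3 and Lck known as TC-PTP, had ChIP peaks of 14 (7.65 to 23.5) and 9 (4.12 to 17.1) fragments and 1 CUT&RUN peak of 18 (10.7 to 28.4) within 1 kb of an end. Ptpn4 had 10 (4.80 to 18.4) and 26 (17.0 to 38.1), 56 and 15 bp inside the end of its span. Its listed start lies further in, so these summits were at -458 and -499 bp from it. Ptpn23, an endosomal sorting protein, had 10 (4.80 to 18.4) and 13 (6.92 to 22.2) at 50 and 133 bp after its start. Ptpn11, which encodes SHP-2, the phosphatase that PD-1 recruits, had a ChIP peak of 13 (6.92 to 22.2) at -103 bp and no CUT&RUN peak. Ptpn21 had a CUT&RUN peak of 23, inside Zc3h14, and no ChIP peak. Ptpn14 had low peaks inside the gene, of 10 and 9 in ChIP and 20 and 12 in CUT&RUN. Neither list had a peak at Ptpn3, Ptpn5, Ptpn9, Ptpn13 or Ptpn20.

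Receptor-type genes stood near the level of all genes within the wider distance. Their median span was 151 kb, and 8 of 17 had a ChIP summit (47.1%; all genes 40.2%), 7 a CUT&RUN summit (41.2%; 45.1%) and 7 both (41.2%; 34.9%). Within 1 kb of an end there were 2 in each list (11.8%, 1.46 to 36.4) and 1 in both. All genes had 22.9% and 27.2% there, and all genes over 200 kb, the class of 8 of the 17, had 13.1% and 14.4%. None of the 14 ChIP peaks and 1 of the 18 CUT&RUN peaks at Ptpr genes was in the top 10% of its list.

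That 1 was at Ptpre, whose transcripts encode a receptor form and a cytoplasmic form. In CUT&RUN 88 fragments covered chromosome 7, 135542497, 4.67 kb into the gene (70.6 to 108; rank 492), and the ChIP summit 34 bp away had 17 (9.90 to 27.2; 24.3% of its list). Further Ptpre pairs inside the gene had CUT&RUN pileups of 33 and 29 with ChIP pileups of 12 and 8. None of the Ptpre summits lay within 1 kb of its 3 listed starts.

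Ptprk, whose locus neighbours Themis, had its peaks grouped at the far part of the gene. The summit nearest to its start lay 439019 bp into the gene. Its pairs had ChIP pileups of 21 (13.0 to 32.1) and 18 (10.7 to 28.4) with CUT&RUN pileups of 33 (22.7 to 46.3) and 34 (23.5 to 47.5), and CUT&RUN had 5 peaks in all, of 13 to 34. Themis was the nearest other gene, 71.2 kb from the closest summit.

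Ptpra, which activates Src-family kinases by removing their inhibitory phosphate, had a pair past its far end, with 9 fragments in ChIP at 0.750 kb (4.12 to 17.1) and 28 in CUT&RUN at 0.727 kb (18.6 to 40.5). Ptprj, the receptor phosphatase CD148, had an internal pair of 13 (6.92 to 22.2) and 24 (15.4 to 35.7). Ptprs had a ChIP peak of 10 near its start and a pair of 11 and 27 near a second listed start. Ptprm and Ptprh had peaks in both lists that did not overlap (ChIP 8 and 11, CUT&RUN 24 and 12), and Ptprd had a ChIP peak of 7 in a span of 2270 kb. Ptprb, Ptprf, Ptprg, Ptprn, Ptpro, Ptprq, Ptprr, Ptprt and Ptpru had none in either list. Ptprcap had a pair close to an end, of 21 fragments in ChIP (13.0 to 32.1) and 27 in CUT&RUN (17.8 to 39.3).

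The atypical Dusp genes stood near the level of all genes: 7 of 14 had a summit in either list (50.0%; all genes 50.5%). Of the 14, 5 had a ChIP summit within the wider distance (35.7%, 12.8 to 64.9; all genes 40.2%), 6 a CUT&RUN summit (42.9%; 45.1%) and 4 both (28.6%; 34.9%). Dusp22 encodes a phosphatase that acts on Lck. Its peak pair 21.9 kb into the gene had pileups of 30 (20.2 to 42.8; rank 652) in ChIP, at chromosome 13, 30681982, and 66 (51.0 to 84.0; rank 1341) in CUT&RUN, 24 bp away. Neither list had a Dusp22 peak within 1 kb of its ends.

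Dusp11, which acts on RNA rather than protein, had a pair near its start of 20 (12.2 to 30.9) and 30 (20.2 to 42.8). Dusp28 had a pair of 10 and 13 within 16 bp of its start, and its highest ChIP peak, of 21 (13.0 to 32.1), lay inside the neighbour Rnpepl1. Dusp18 had 7 (2.81 to 14.4) and 33 (22.7 to 46.3) at -132 and -95 bp, beside 4921536K21Rik. Dusp12 had a ChIP peak of 16 inside Atf6, Dusp23 a CUT&RUN peak of 23 at -176 bp, and Dusp13 a CUT&RUN peak of 17 that lay 147 bp from an end of Samd8. Dusp3, Dusp14, Dusp15, Dusp19, Dusp21, Dusp26 and Dusp27 had no peak in either list. Of the 8 members with peaks in a single list, 0 had a peak in the top 10% of that list.

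**Figure D3:**
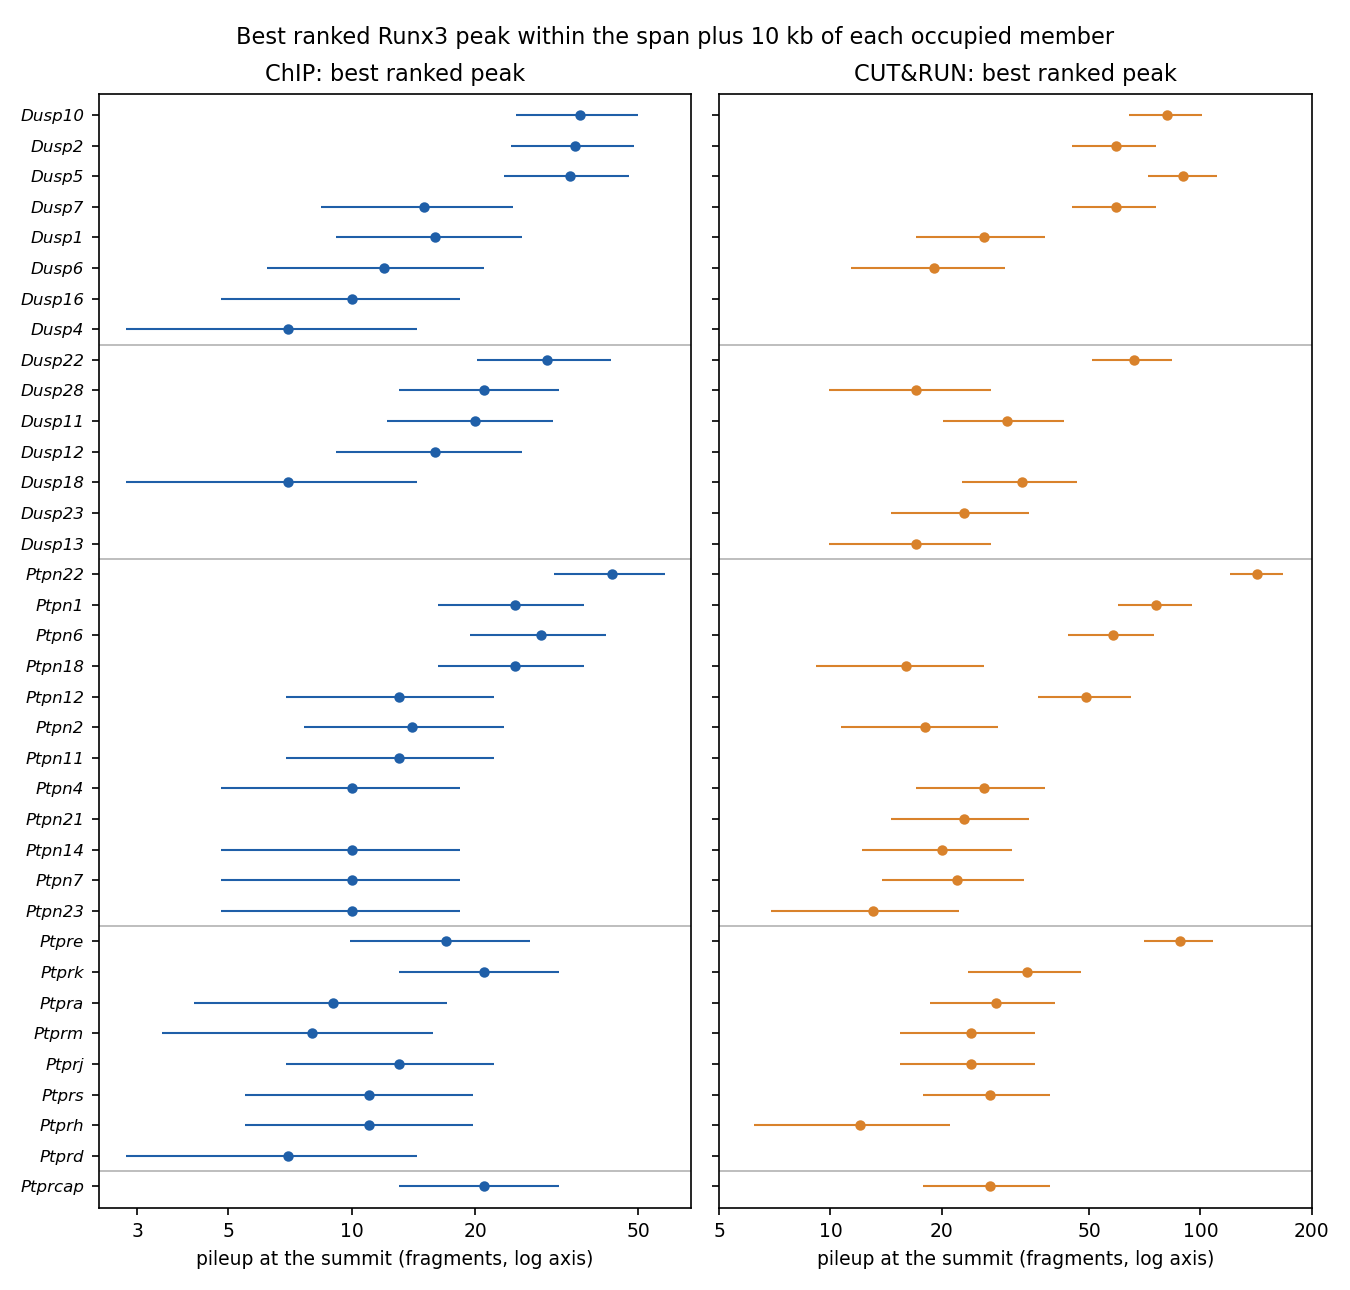
Pileup in fragments (log axis) of the best-ranked peak within the span plus 10 kb of each member with a peak, ChIP left and CUT&RUN right, with exact 95% Poisson intervals; grey lines separate MAP kinase phosphatases, atypical Dusp, Ptpn, Ptpr and Ptprcap. Ptpn22 is highest in both panels (43 and 142), and a missing point means no peak in that list.

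The median height of the members' peaks was near that of each list. The 68 ChIP peaks had pileups of 7 to 43 with a median of 10.5, where all ChIP peaks had a median of 12, and the 64 CUT&RUN peaks had 10 to 142 with a median of 23.5, where all had 25. In the top 10% of each list were 11 ChIP peaks (16.2%) and 10 CUT&RUN peaks (15.6%). Of the peaks near any protein-coding gene, 9.56% in ChIP and 8.67% in CUT&RUN were. The Dusp2 ChIP peak of 24 fragments stood at 9.95%, just inside the limit, where the order among equal pileups follows peak number. Of the 11 in ChIP, 5 were at MAP kinase phosphatases, 5 at Ptpn genes and 1 at an atypical Dusp; of the 10 in CUT&RUN, the counts were 4, 4 and 1, and 1 at a Ptpr gene. Of the 10 members with the best ranks in each list, 7 were shared: Ptpn22, Dusp10, Dusp2, Dusp5, Dusp22, Ptpn6 and Ptpn1.

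A ChIP peak at a member overlapped a CUT&RUN peak in 40 of 68 cases (58.8%, 46.2 to 70.6; all ChIP peaks 66.2%), and a CUT&RUN peak overlapped a ChIP peak in 42 of 64 (65.6%, 52.7 to 77.1; all CUT&RUN peaks 58.8%). The overlap was thus near that of the whole lists. The median distance between paired summits was 37 bp (quartiles 19.8 and 55.2 bp), with 27 of 40 within 50 bp, and over all 8721 pairs it was 35 bp. Pileups of the paired peaks rose together (Spearman 0.576, Pearson 0.638 on log2 values, n = 40), as they did over all 8721 pairs (0.515 and 0.575). These points share their libraries, and several share a gene, so the values are descriptive. In the top 10% of both lists were 6 pairs at 4 genes: 2 at Ptpn22, 2 at Dusp5, and 1 each at Dusp10 and Dusp22.

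**Figure D4:**
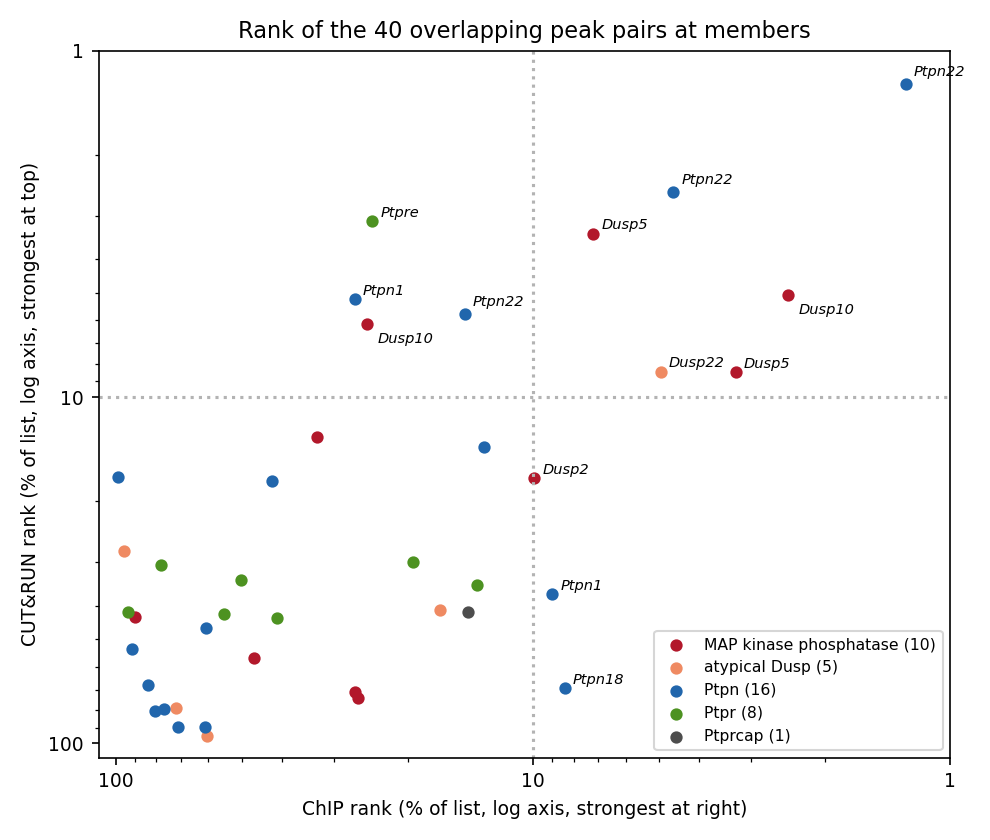
Rank of the 40 overlapping peak pairs at members, as percent of the ChIP list (horizontal, log axis) and of the CUT&RUN list (vertical, log axis), strongest toward the top right, coloured by subfamily. Dotted lines mark 10% of each list; 6 pairs, of Ptpn22, Dusp5, Dusp10 and Dusp22, lie in the top right, while pairs of Ptpre, Ptpn1, Dusp10 and Ptpn22 lie in the top 10% of CUT&RUN alone.

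Most member peaks lay away from a start. Of the 68 ChIP peaks, 39 were inside a member and 29 outside, and of the 64 CUT&RUN peaks 38 and 26. Within 1 kb of an end of the member itself lay 24 ChIP peaks (35.3%) and 20 CUT&RUN peaks (31.2%). Of peaks near any protein-coding gene, 44.4% in ChIP and 45.2% in CUT&RUN lay within 1 kb of an end of any such gene. That rule is wider, since member peaks at the end of a neighbour were not counted, so the shares are no direct match. At members with listed starts, 22 of 60 ChIP peaks lay within 1 kb of one, 17 upstream and 5 downstream, and 19 of 59 CUT&RUN peaks did, 13 upstream and 6 downstream. For 11 ChIP peaks of 7 members and 12 CUT&RUN peaks of 9 members, an end of another gene was nearer. Just inside the 1 kb limit were the ChIP summits of Dusp10 (969 bp) and Dusp2 (968 bp), and just outside it that of Dusp6 (1048 bp). The farthest from its gene was the CUT&RUN summit of Ptprh, at 9843 bp.

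Among members' promoters with a summit, the RUNX letters were found at Ptpn22 alone. RUNX letters were searched as TGTGGT or TGCGGT on both strands in the 300 bp windows of the 47 members with listed starts. They stood in 13 of 63 windows (20.6%), where 21.6% of all 21262 windows held them. Of the 16 member windows with a summit of either list, at 14 genes, 1 held them (6.25%, 0.158 to 30.2), namely Ptpn22. Over all genes the share was 36.2% of windows with a ChIP summit and 28.4% of those with a CUT&RUN summit. The share for either list was not computed over all genes, so these values are no direct match. For windows with a summit of each list, 1 of 9 member windows held the letters (11.1%, 0.281 to 48.2). Over all genes 844 of 2110 such windows did, a share inside the members' interval. Of the 47 member windows without a summit, 12 held the letters (25.5%). The ETS letters CCGGAAGT were in 1 member window (Ptpn1; all windows 5.15%) and the CRE letters TGACGTCA in 5 (7.94%, 2.63 to 17.6; all windows 2.23%). Of those 5, Dusp1, Ptpn11 and Ptprs had a summit in the window, and Ptpru and Dusp8 had none. A match is letters in a window and not a tested site, and sequence outside the windows was not used here.

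Summits were also counted at the kinases and adaptors that the phosphatases act on or meet. Of 35 such genes, 26 had a ChIP summit within the span plus 10 kb (74.3%; all genes 40.2%), 30 a CUT&RUN summit (85.7%; all genes 45.1%) and 24 both. By group, 17 of 22 kinases and 9 of 13 adaptors and receptors had a ChIP summit, and 18 and 12 a CUT&RUN summit. The list was chosen for known roles in T cell signalling, and most genes on it are known for such roles, which the phosphatase list did not require. Among the best ranked in each list were Ubash3b, Csk, Jak1 and Lck. Ubash3b, itself a phosphatase of Zap70, had pileups of 57 (43.2 to 73.9) in ChIP and 95 (76.9 to 116) in CUT&RUN. Csk, the kinase that restrains Lck and binds Ptpn22, had 40 (28.6 to 54.5) and 85 (67.9 to 105). Jak1, a cytokine receptor kinase, had 38 (26.9 to 52.2) and 104 (85.0 to 126), and Lck had 26 (17.0 to 38.1) and 102 (83.2 to 124). In ChIP, Ubash3b had a higher pileup than any member, with an interval that overlaps that of Ptpn22, and in CUT&RUN the pileup of Ptpn22 was above those of these 4 genes. Gab2, Map2k4 and Mapk13 had no peak in either list.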

How the data were processed

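The 4 groups (ChIP, CUT&RUN, whole cell extract, normal serum) had 1 library each. Bowtie (version not given in the sources used here) aligned reads to mm10 and MACS2 called peaks, per the submitters' processing notes. Per the file headers, MACS2 2.1.1.20160309 ran on each library alone, ChIP at q of 0.05 against whole cell extract and CUT&RUN at q of 1e-05 without control. Duplicate removal took 80.3% of 48285251 ChIP fragments and 21.4% of 17896991 CUT&RUN fragments, per the file headers. The deposited values are a pileup signal, −log10 p-values and q-values, a fold ratio over background, and peak positions, taken from the authors' MACS2 output.

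Members and lists were chosen with earlier results of these data known. Summits were assigned to RefSeq spans (GRCm38.p6) with python 3.11.15, pandas 2.3.3 and scipy 1.17.1, and peaks sharing 1 bp or more were paired (checked against bedtools 2.31.1). The assignment was tested on simulated data. Intervals (95%, Clopper-Pearson or Poisson, exact) cover counting error only, since each group was 1 library and spread between libraries could not be measured. Described in full were members with summits of both lists within 1 kb of an end, the 10 best-ranked in each list, those with 5 or more peaks, and those of 1 list in its top 10%; of partners, the 5 best-ranked and those with none. Of these partners and of the cell markers, some results are not reported here. Others are given by value or count. Alternatives changed distances, the ChIP threshold and list depth. The planned search of proteins for the catalytic signature was not run, because no protein table was used here.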

Additional observations from a re-analysis of the deposited data

How the results depend on the processing

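Of 136 recomputed values, 114 stayed within the range set for a count or share and 22 moved. A change of direction was not assessed. Some of the 114 could not move, such as CUT&RUN counts when the ChIP threshold alone was changed. With no extension of the span, MAP kinase phosphatases with summits of both lists went from 6 to 1 (all genes 34.9% to 16.2%). With 50 kb, atypical Dusp genes went from 4 to 8 (all genes to 54.5%). Within 0.5 kb of an end, Ptpr genes went from 1 to 0.

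Holding ChIP to the q of the CUT&RUN list (1e-05) left 23 members in ChIP (39.0%; all genes 29.3%) and 21 in both lists (35.6%; all genes 27.2%) within the span plus 10 kb, with 6 Ptpn genes in both. Within 1 kb of an end it left 10 members in ChIP (16.9%; all genes 15.2%) and 9 in both lists (15.3%; all genes 13.2%), of them 1 atypical Dusp, 2 Ptpn and 0 Ptpr genes. The share of member ChIP peaks that overlap the other list became 76.5%, and that of CUT&RUN peaks 43.8%.

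With the stronger 0.5 of each list, 21 members in ChIP (35.6%; all genes 25.6%), 20 in CUT&RUN (33.9%; all genes 28.4%) and 14 in both (23.7%; all genes 19.6%) had a summit in the span plus 10 kb, with 2 atypical Dusp, 4 Ptpn and 3 Ptpr genes in both. Within 1 kb of an end, 10 in ChIP (16.9%; all genes 12.8%) and 7 in both lists (11.9%; all genes 8.33%) were left (1 atypical Dusp, 1 Ptpn and 0 Ptpr). Among alternatives added after seeing the data, leaving out summits nearer to another gene gave 32, 28 and 27 members within the span plus 10 kb and 17, 15 and 13 within 1 kb of an end (ChIP, CUT&RUN, both).

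No paired analysis was possible because each group is 1 library. Low ChIP pileups limit what can be said: a median member peak rests on 10.5 fragments, and a member without a peak is not shown to be unbound.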
